A study of Rattus norvegicus with 2 samples.

Results

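Translation initiation factors are the proteins that bring the small ribosomal subunit, the initiator tRNA and an mRNA together and start protein synthesis at the correct codon. In the probe-to-gene table of the array, 40 of 15037 named genes carried a symbol of the families Eif1 to Eif6, with the Y-linked Eif2s3y and the eIF2 kinase genes left out, and these 40 are described here. Each of the 40 had a signal above 5.04 log2 units, the background floor taken from odour and taste receptor genes, on 1 array or both. Another 13 protein-coding genes of these families in the RefSeq gene table had no named probe and were not analysed here, among them Eif1, Eif2a, Eif3g, Eif3k, Eif4e2, Eif4ebp3, Eif4g1 and Eif5.

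The cells were cultured epidermal keratinocytes of newborn rats, kept in medium with serum and hydrocortisone. The 2 groups had 1 array each. The siTet2/3 cells were transfected with siRNAs against Tet2 and Tet3, each at 1 µM, which target enzymes that oxidise methylated cytosine in DNA. The control cells are described in the labels as non-treated, under a title with the letters NC that are not spelled out. Whether they received transfection reagent or another siRNA is not stated there. Both cultures were given vitamin C for 12 h, in the siTet2/3 culture 24 h after transfection, so no comparison below concerns vitamin C itself. The platform table names no probe for Tet2 or Tet3, so the knockdown itself was not analysed here.

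With 1 array per group no difference had a replicate check, no test was made, and each statement of a higher or lower value concerns this pair of arrays. Values are deposited log2 signals, and a difference is siTet2/3 minus control in log2 units. Differences of 1.5-fold or more were counted. Among 8103 named genes that passed the floor, 8.63% were counted as higher in siTet2/3 cells and 13.2% as lower, or 21.8% either way. In a bulk culture fewer cells of a type and less RNA per cell cannot be told apart. The keratinocyte identity of both cultures was visible in the marker genes: all 6 keratinocyte markers with a named probe lay above the floor, among them Krt14 at 18.54 and 18.70 log2 units. Of the 6, 4 were lower in siTet2/3 cells, none past 1.5-fold, with a median difference of -0.25, Krt1 lowest at -0.45 and Tp63 at -0.41; their part in the results below was not tested. All 6 fibroblast and all 4 melanocyte markers with a named probe lay below it. Of 4 immune markers, Cd68 passed it (5.52 and 5.24), and of 4 endothelial markers, Tek (9.66 and 9.25), while Ptprc, Cd74, Cdh5 and Kdr did not.

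Initiation proceeds in steps, each with its own factors. eIF2 carries the initiator tRNA with GTP and is recharged by eIF2B. eIF1, eIF1A and eIF3 bind the small subunit and keep it open for scanning. The cap of the mRNA is bound by eIF4E, which joins the scaffold eIF4G and the helicase eIF4A in the eIF4F complex, and the 4E-binding proteins compete with eIF4G for eIF4E. eIF5B then joins the large subunit. In keratinocytes, as in other cells, the main regulated steps are phosphorylation of eIF2 and release of eIF4E from its inhibitors, which are changes of protein that mRNA levels do not show.

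Most initiation factor genes differed little between the arrays. Of the 40, 1 reached 1.5-fold upward in siTet2/3 cells (Eif2b4), 4 reached it downward (Eif3d, Eif2d, Eif4h and Eif4ebp1) and 35 reached it in neither direction. The 12.5% of members past 1.5-fold either way stood beside 21.8% of all named genes above the floor, and the 10.0% that were lower beside 13.2%. Neither share of members exceeded that of all genes. Among the 27 members with a mean level of at least 10 log2 units, 3 were past 1.5-fold, or 11.1%, against 12.9% of the 2248 genes above that level. The median difference of the 40 was -0.04, against -0.05 for all genes above the floor, with 23 members below 0 (57.5%, against 55% of all genes) and 17 above. The median size of the difference, regardless of sign, was 0.20 log2 units for the members and 0.31 for all genes above the floor. Differences under 0.25 in size were found for 23 members (57.5%) and for 42.3% of all genes. The gap was narrower among bright genes: at a mean level of at least 10 log2 units the median size was 0.19 for members and 0.24 for all genes, and 63.0% and 52.3% differed by under 0.25.

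**Figure D1:**
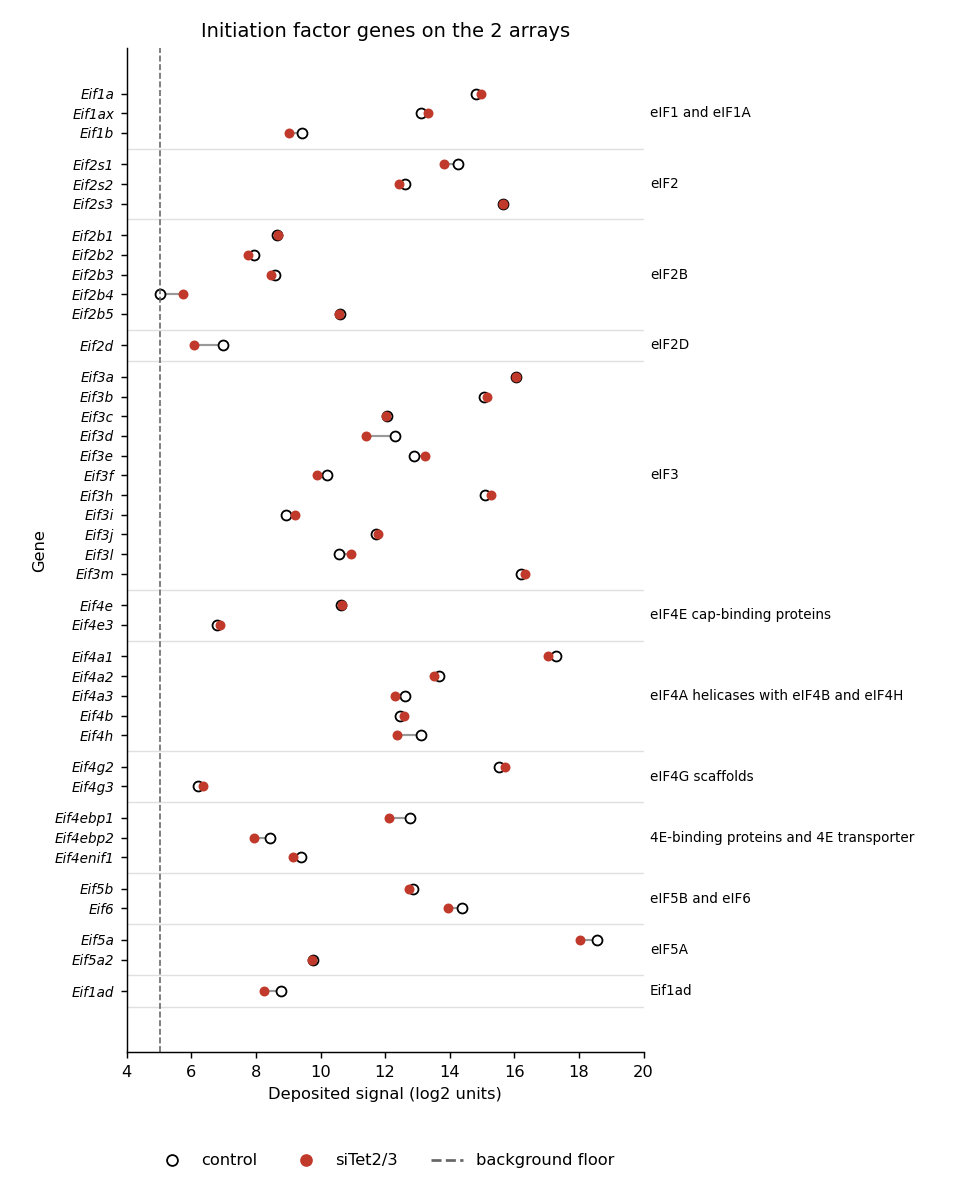
Deposited log2 signals (x axis) of the 40 initiation factor genes (y axis, grouped by complex) on the control array (open circles) and the siTet2/3 array (filled circles), 1 array each; the dashed line is the background floor of 5.04 log2 units. For most genes the circles nearly coincide; the pairs furthest apart are Eif3d, Eif2d, Eif4h, Eif2b4 and Eif4ebp1, and only the control value of Eif2b4 lies below the floor.

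RefSeq promoter sequences of assembly GRCr8 were matched for 35 of the 40 members. They are shown for the members past 1.5-fold that had an entry, with CpG dinucleotides marked because TET enzymes oxidise methylated cytosine. Whether cytosines in these windows were methylated, or acted on by TET enzymes, was not measured. Each line gives the 250 bases before the annotated start, 5′ to 3′ on the gene's strand, with CpG dinucleotides in capitals.
Eif3d, GRCr8 chr7:111432741-111432990, minus strand: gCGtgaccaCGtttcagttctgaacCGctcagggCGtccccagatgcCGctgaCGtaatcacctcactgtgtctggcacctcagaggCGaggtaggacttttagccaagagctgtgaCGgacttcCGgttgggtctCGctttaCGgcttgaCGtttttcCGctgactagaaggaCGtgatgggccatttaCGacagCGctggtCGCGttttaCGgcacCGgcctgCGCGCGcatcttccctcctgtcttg
Eif2d, GRCr8 chr13:45167927-45168176, plus strand: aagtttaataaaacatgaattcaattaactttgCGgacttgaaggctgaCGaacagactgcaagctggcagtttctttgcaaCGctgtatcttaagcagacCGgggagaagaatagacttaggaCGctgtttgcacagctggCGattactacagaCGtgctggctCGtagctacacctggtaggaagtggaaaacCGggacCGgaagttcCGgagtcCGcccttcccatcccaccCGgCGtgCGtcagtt
Eif4h, GRCr8 chr12:27719442-27719691, plus strand: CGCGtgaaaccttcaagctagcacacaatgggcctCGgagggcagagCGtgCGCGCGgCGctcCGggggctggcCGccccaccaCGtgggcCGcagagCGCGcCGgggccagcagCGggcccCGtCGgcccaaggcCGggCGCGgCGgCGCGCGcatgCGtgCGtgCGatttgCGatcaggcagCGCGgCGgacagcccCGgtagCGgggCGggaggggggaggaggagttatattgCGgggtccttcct
Eif2b4, GRCr8 chr6:30902989-30903238, plus strand: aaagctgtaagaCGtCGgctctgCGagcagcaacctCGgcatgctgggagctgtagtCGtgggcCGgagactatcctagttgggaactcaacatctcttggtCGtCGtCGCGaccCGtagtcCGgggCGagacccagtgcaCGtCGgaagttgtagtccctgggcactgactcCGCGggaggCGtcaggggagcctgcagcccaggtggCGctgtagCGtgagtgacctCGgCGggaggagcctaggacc
The windows held 23 CpG dinucleotides for Eif3d, 15 for Eif2d, 36 for Eif4h and 22 for Eif2b4, which was the member with a higher value. Their GC content was 58.4%, 50.8%, 74.8% and 64.0%.

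Factors that act on the open small subunit came in both directions. Eif1a, which encodes a copy of the scanning factor eIF1A, read 14.81 log2 units in control and 14.98 in siTet2/3 cells, a difference of 0.17. Its X-linked relative Eif1ax read 13.11 and 13.33, a difference of 0.21. Eif1b, which encodes a close relative of the start-codon selection factor eIF1, lay the other way, at 9.42 and 9.02 (-0.40). Eif1ad, which encodes a protein with an eIF1A-like domain, read 8.77 and 8.24, a difference of -0.53 that fell short of 1.5-fold. So both eIF1A genes were slightly higher and the others of this family lower, with no member past 1.5-fold.

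The 3 subunits of eIF2, which delivers the initiator tRNA, had differences from -0.42 to 0.02 and none passed 1.5-fold. Eif2s1 encodes the alpha subunit, whose phosphorylation slows initiation under stress, and read 14.25 and 13.83 log2 units, 1.34-fold lower on the siTet2/3 array. Eif2s2, the beta subunit gene, read 12.62 and 12.43 (-0.18). Eif2s3, the gamma subunit gene that binds GTP, read 15.64 and 15.66 (0.02). The alpha subunit gene thus lay further from 0 than the other subunit genes of the same complex.

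eIF2B, the exchange factor that returns eIF2 to its GTP form, is built of 5 subunits, all of them on the array. Eif2b4, which encodes the delta subunit of its regulatory part, was the only initiation factor gene counted as higher. It read 5.02 log2 units in control and 5.74 in siTet2/3 cells. Because the control value lay under the floor, the fold is a bound of at least 1.63. With a floor of 5.23 taken from fewer receptor genes the bound is at least 1.43, which does not reach 1.5-fold. The difference as measured was 0.72, in a range of levels where differences spread widely. Of the other regulatory subunit genes, Eif2b1 (alpha) read 8.64 and 8.68. Eif2b2 (beta) read 7.95 and 7.74. Of the catalytic subunit genes, Eif2b3 (gamma) read 8.60 and 8.46, and Eif2b5 (epsilon), which holds the exchange activity, 10.61 and 10.58. Apart from Eif2b4 the differences lay between -0.21 and 0.04, and the median of the 5 was -0.03.

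Eif2d encodes a factor that can place tRNA in the ribosome without the usual eIF2 cycle and also acts in recycling. It was 1.87-fold lower on the siTet2/3 array, at 6.98 against 6.08 log2 units. Both values were above the floor but below 8.31 log2 units, a stricter floor set from negative-control probes. Its functional relatives Denr and Mcts1, which form a heterodimer resembling eIF2D, did not share this direction: Denr read 11.21 and 11.55 (0.34) and Mcts1 6.53 and 6.62 (0.09).

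eIF3 is the largest initiation complex and the platform on which the others assemble. Of its 11 subunit genes with a named probe, 1 reached 1.5-fold, in the lower direction, and the remaining 10 did not. Eif3d, whose protein contacts the mRNA channel and can bind the cap of selected mRNAs, read 12.32 log2 units in control and 11.41 in siTet2/3 cells. This 1.87-fold lower value was the largest difference among the 40 members. Differences of genes of that level had a robust SD (a scaled median absolute deviation) of 0.41 log2 units, and Eif3d lay 2.22 such SDs from 0. The other subunit genes did not follow it. The scaffold subunit gene Eif3a read 16.04 on both arrays, a difference of -0.0022, and Eif3c read 12.06 and 12.04 (-0.02). Eif3b, which encodes the other large scaffold subunit, read 15.06 and 15.15 (0.09). Eif3i, its propeller-shaped partner, read 8.93 and 9.21 (0.28), and the loosely attached subunit gene Eif3j 11.73 and 11.79 (0.07).

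Of the 7 genes on the array for the PCI and MPN core of eIF3, which includes Eif3a and Eif3c, 4 lay above 0 and 3 below. Eif3l read 10.58 and 10.95 log2 units, a difference of 0.37, the highest in the complex. Eif3e followed at 12.88 and 13.25 (0.36), Eif3h at 15.08 and 15.27 (0.19) and Eif3m at 16.19 and 16.33 (0.13). Eif3f lay below 0, at 10.20 and 9.90 (-0.29). Over all 11 genes 7 differences were above 0 and 4 below, with a median of 0.09; after centring on the median of all genes 9 were above 0. The Eif3e and Eif3h values carry a doubt about what was measured. The identifiers of their probes name chromosomes 13 and 6, while RefSeq places both genes on chromosome 7, and chromosome 6 holds a pseudogene called Eif3h-ps1. The pseudogenes named after Eif3e lie on chromosomes 7 and X, so none was found on chromosome 13. Such a mismatch occurred for 2 of the 40 members and for 282 of 15049 named probes (1.87%). Whether these probes read the gene, a processed copy or both was not tested.

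**Figure D2:**
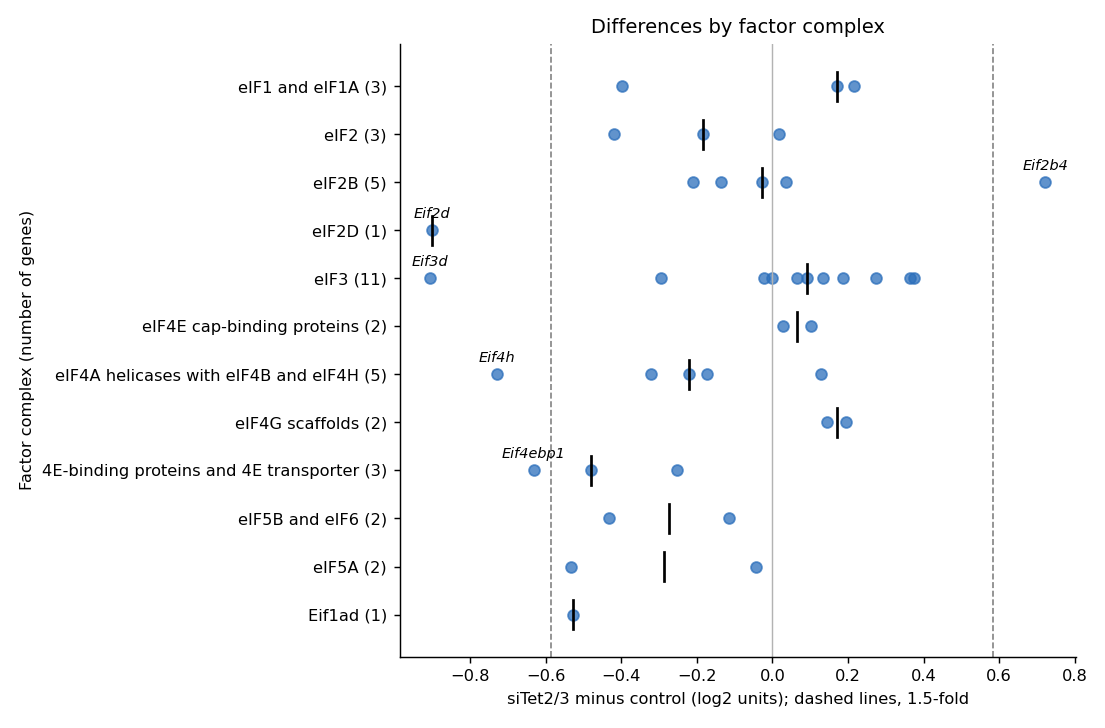
Difference between the arrays (x axis, siTet2/3 minus control in log2 units) for each initiation factor gene (points), by factor complex (y axis, number of genes in brackets); short black bars are medians and dashed lines mark 1.5-fold. The 4 named points beyond the left line and Eif2b4 beyond the right line are the members past 1.5-fold; the 4E-binding proteins and transporter all lie left of 0, and both eIF4E and both eIF4G genes lie right of it.

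Cap recognition genes differed little. Eif4e, which encodes the cap-binding protein of eIF4F, read 10.62 log2 units in control and 10.65 in siTet2/3 cells, a difference of 0.03. Eif4e3, an atypical relative, read 6.79 and 6.89 (0.10). The scaffolds were close as well. Eif4g2, which encodes DAP5, an eIF4G-like protein that lacks the eIF4E-binding part, read 15.53 and 15.72 (0.20), and Eif4g3 read 6.21 and 6.35 (0.15). All 4 genes were slightly higher on the siTet2/3 array and none came near 1.5-fold. The differences lay between 0.07 (Eif4e) and 0.72 (Eif4g2) robust SDs of genes of their level from 0. Eif4e3 and Eif4g3 lay below the negative-control floor of 8.31 log2 units on both arrays. The scaffold gene Eif4g1 had no named probe.

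The genes for inhibitors of eIF4E lay below 0. Eif4ebp1 encodes 4E-BP1, which binds eIF4E and keeps it from eIF4G until mTORC1 phosphorylates it. It read 12.75 log2 units in control and 12.12 in siTet2/3 cells, 1.55-fold lower. After centring on the median difference of all genes it was 1.49-fold lower and no longer past 1.5-fold, so its place among the lower genes hangs on the scaling. Eif4ebp2, the second 4E-binding protein on the array, was 1.40-fold lower, at 8.42 and 7.94. Eif4enif1, which encodes the carrier 4E-T that moves eIF4E into the nucleus and to P-bodies, read 9.40 and 9.15 (-0.25). All 3 genes thus lay below 0, with a median of -0.48, where 55% of all named genes above the floor also lay. The median was -0.43 after centring and -0.42 once a loess trend on level was removed. Both steps shifted these values too little to change their sign, so the unchanged sign says nothing about stability. Eif4e itself, their binding partner, differed by 0.03.

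The unwinding factors held another of the lower genes. Eif4h encodes a small RNA-binding protein that stimulates the eIF4A helicase, and read 13.11 log2 units in control and 12.38 in siTet2/3 cells, 1.66-fold lower. Genes of its level had a robust SD of differences of 0.32, and Eif4h lay 2.29 such SDs from 0. Eif3d and Eif4h were the only 2 members at least 2 robust SDs away, 5.0% of the 40, beside 5.92% of all genes above the floor. Eif4b, which encodes the larger protein with the same activity, differed the other way, at 12.47 and 12.59 (0.13). The helicase genes themselves were a little lower. Eif4a1, the main helicase gene, read 17.28 and 17.06 (-0.22), Eif4a2 13.67 and 13.50 (-0.17), and Eif4a3, which works in the exon junction complex and not in eIF4F, 12.62 and 12.30 (-0.32).

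**Figure D3:**
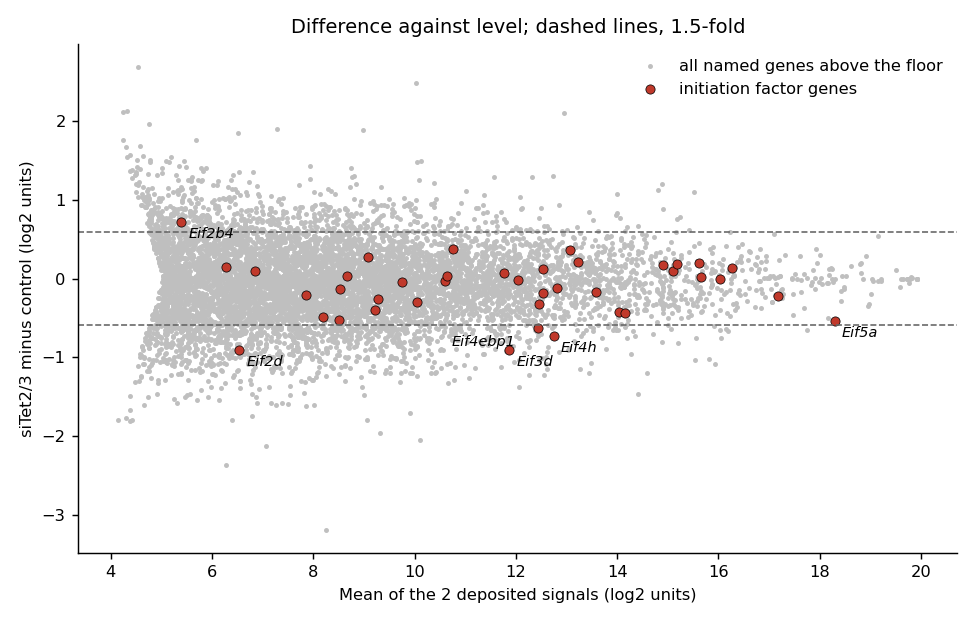
Difference between the arrays (y axis, siTet2/3 minus control, log2 units) against the mean of both signals (x axis, log2 units) for the 8103 named genes above the floor (small grey points) and the 40 initiation factor genes (large points); dashed lines mark 1.5-fold. The grey cloud narrows to the right, so that Eif5a, short of 1.5-fold, lies at its lower edge, while Eif2b4 and Eif2d lie in its wide left part.

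Late and post-initiation factors were lower without passing 1.5-fold. Eif5a encodes the hypusine-bearing factor that helps ribosomes over difficult peptide bonds, and read 18.57 log2 units in control and 18.03 in siTet2/3 cells. This difference of -0.53, 1.45-fold lower, stood 1.95 robust SDs from 0 at a level where the robust SD was 0.27. Its paralog Eif5a2 read 9.78 and 9.74 (-0.04, or 0.01 after centring). Of the genes for the enzymes that make hypusine, Dhps read 6.62 and 6.07 (-0.55) and Dohh 7.47 on both arrays. Eif6, which encodes the anti-association factor of the large subunit, was 1.35-fold lower, at 14.38 and 13.94. Eif5b, the subunit-joining GTPase gene, read 12.87 and 12.75 (-0.11). Just short of the 1.5-fold limit of 0.58 log2 units stood Eif5a and Eif1ad at -0.53, and just past it Eif4ebp1 at -0.63.

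Regulators upstream of these factors were read from lists drawn up with earlier results of these data known. Counts in this list and those below stand beside 8.63% higher and 13.2% lower among all named genes above the floor. Of 10 genes for eIF2 kinases, eIF2 phosphatase subunits and their modulators, 2 were counted as lower in siTet2/3 cells and 1 as higher, with a median of -0.24. The kinase gene Eif2ak4 (GCN2), which senses uncharged tRNA, read 5.36 and 4.61 log2 units; with the lower value under the floor, its bound is at least 1.25-fold, short of the 1.5-fold at which its measured difference was counted. Impact, which encodes an inhibitor of GCN2 activation, was 1.87-fold lower (7.46 and 6.55), with both values below the negative-control floor of 8.31 log2 units. Ppp1r15b, which encodes the constitutive phosphatase subunit that removes the phosphate from eIF2, was 1.70-fold higher (8.91 and 9.67), and its stress-induced counterpart Ppp1r15a read 8.97 and 8.54. The kinase genes Eif2ak1, Eif2ak2 and Eif2ak3 differed by -0.14, -0.24 and -0.24.

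For mTORC1 and other regulators of eIF4 proteins, 24 of 27 genes on the array were above the floor, 2 of them higher and 2 lower past 1.5-fold, with a median of -0.01. Sesn3, which encodes a sestrin that restrains mTORC1, was 2.81-fold higher on the siTet2/3 array (9.38 and 10.87 log2 units). Pdcd4, which encodes an inhibitor of the eIF4A helicase, was 1.57-fold higher (13.87 and 14.52). Lower were the genes of the Ragulator subunits Lamtor5 (7.03 and 6.04, 1.98-fold) and Lamtor4 (8.69 and 7.81, 1.84-fold), which hold mTORC1 at the lysosome. Both Lamtor5 values lay below the negative-control floor of 8.31 log2 units. The other Ragulator genes did not pass 1.5-fold: Lamtor1 differed by 0.04, Lamtor2 by 0.12 and Lamtor3 by -0.35. The kinase gene Mtor read 6.24 and 6.69, and its partner Rptor 7.14 and 6.68. The inhibitors Eif4ebp1 and Pdcd4, which act on different parts of eIF4F, therefore differed in opposite directions.

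Partners of initiation, such as poly(A)-binding proteins and helper helicases, had no gene past 1.5-fold among 12 above the floor. Of 20 listed partners, these 12 had a named probe. Of the 12 differences, 10 were above 0 and 2 below, with a median of 0.17. Among all named genes above the floor 55% lay below 0, and the partners were not tested against them. The largest was Cyfip1, which encodes an eIF4E-binding partner of FMRP, at 11.17 and 11.74 log2 units (1.49-fold); it passed 1.5-fold after centring. The list of elongation factor genes also held genes for enzymes that modify translation factors. Of its 14 genes above the floor, 2 were lower and 0 higher, with a median of -0.13. Neither lower gene encodes an elongation factor itself. The lower genes were Dph6 (8.67 and 7.63, 2.07-fold) and Dph2, which both encode enzymes that make diphthamide, the modified residue of eEF2. Dph2 was counted on its measured difference, but lay under the floor in siTet2/3 cells, so its bound of at least 1.21-fold does not reach 1.5-fold. Other diphthamide genes lay above 0, Dph3 at 0.17 and Dph5 at 0.18. Eef2 itself read 18.16 and 18.30. Eef1a1 stood at 19.93 on both arrays, the top of the deposited scale, where a difference cannot show; 0 of the 40 initiation factor genes stood there.

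Among 7 termination and recycling genes above the floor, 3 were past 1.5-fold downward and 0 upward, with a median of -0.18. They were Pelo, which encodes a factor that splits stalled ribosomes (8.88 and 8.07 log2 units, 1.76-fold), Nemf, whose protein acts on the stuck chain (9.41 and 8.70, 1.63-fold), and the ubiquitin ligase gene Ltn1 (7.36 and 6.68, 1.60-fold). Hbs1l, which encodes the partner of Pelo, read 10.16 and 10.22 (0.05), and the recycling gene Abce1 differed by -0.18. The normal release factor gene Etf1 read 14.34 and 14.80. Mitochondria use separate translation factors, and the 9 listed genes cover initiation, elongation, release and recycling. Of these 9, 2 were lower and 0 higher, with a median of -0.07. They were the release factor gene Mtrf1l (1.76-fold) and the initiation factor gene Mtif3 (1.71-fold). In the Myc network, whose factors bind the E-box, 3 of 8 genes were lower and 0 higher: Mxd1 (1.72-fold), Mxi1 (1.69-fold) and Mlx (1.62-fold). Myc read 14.38 and 14.10. Beside the counts in these short lists, 13.2% of all named genes above the floor were lower past 1.5-fold. Ltn1, Mtrf1l and Mtif3 lay below 8.31 log2 units, the negative-control floor, on both arrays.

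Set beside the gene groups most like them, initiation factors had a median difference of -0.04, cytosolic ribosomal protein genes of -0.14 and cytosolic aminoacyl-tRNA synthetase genes of -0.06. Of 68 ribosomal protein genes, 3 passed 1.5-fold downward and 0 upward; of 21 synthetase genes and their scaffold genes, 3 were lower and 0 higher. The median size of the difference was 0.20 for initiation factors, 0.18 for ribosomal proteins and 0.28 for synthetases. Rpl31 and Rps29 stood at 19.93 on both arrays, the top of the scale, where a difference cannot show. Ribosomal protein genes had a mean control level of 14.95 log2 units and synthetase genes 11.93, and differences spread less among bright genes. These groups were not tested against each other. After centring or loess correction for level, 2 genes were lower in each of the latter lists.

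**Figure D4:**
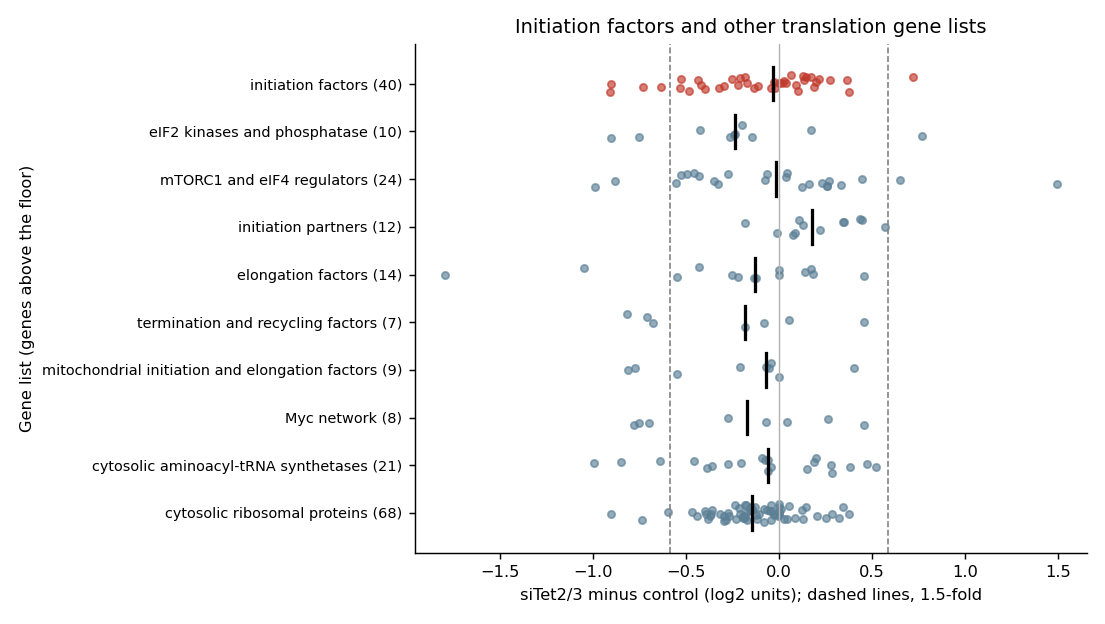
Difference between the arrays (x axis, siTet2/3 minus control, log2 units) for initiation factor genes (top row) and 9 other translation-related lists (y axis, number of genes above the floor in brackets); each point is a gene, black bars are medians and dashed lines mark 1.5-fold. The initiation factor median of -0.04 lies next to 0; initiation partners lie mostly right of 0 (median 0.17), and the point furthest right is Sesn3.

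The promoters of initiation factor genes were described by features that the choice of members did not use. Over the 300-base RefSeq windows, from 250 bases before to 50 after the annotated start, the 35 matched members had a median of 24 CpG dinucleotides and an observed-to-expected CpG ratio of 0.92. The 6839 matched genes above the floor had medians of 22 and 0.79. The letters CCGGAA, the core of ETS factor sites, were found on either strand in 18 of 35 members (51.4%) and in 31.3% of those genes. The E-box letters CACGTG, read by Myc and its relatives, were found in 8 members (22.9%) and in 9.90%. They were found for Eif1b, Eif3a, Eif3b, Eif3f, Eif4e, Eif4h, Eif5a and Eif5a2. Of the windows printed above, those of Eif3d and Eif2d hold the ETS letters and that of Eif4h the E-box letters. The CCAAT box, in the letters CCAAT, was found in 10 members (28.6%) against 38.3%, and the TATA box, in the letters TATAAA, in 2 (5.71%) against 6.93%. The cAMP response element letters TGACGTCA were found in 0 members, against 3.49% of those genes. Members with the ETS letters had a median difference of -0.19 and those without -0.03; with and without the E-box letters the medians were -0.17 and -0.11. For the CCAAT box they were -0.26 and -0.02, and for the TATA box, which 2 members held, -0.30 and -0.04. These are matches of letters in a fixed window. The share of all 12435 promoters of named genes holding them was 21.3% for CCGGAA and 7.94% for CACGTG. Median differences with and without the letters were taken for members only, not for all genes above the floor. A link between the letters and the differences was not tested.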

How the data were processed

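RNA of 1 control and 1 siTet2/3 culture was hybridised to 1 whole-transcript array each. The log2 signals per probe set are as the authors deposited them; the submitters' processing notes name RMA and the Transcriptome Analysis Console, without versions. The genome build is not given in the sources used here. Such normalisation makes every difference relative to the bulk of genes and hides a change in total RNA. Probes were named through a platform table, giving 15049 named probes and 15037 genes; no member had more than 1 probe. The floor was the 95th percentile, over 1206 chemoreceptor genes, of the higher value. The rule as first written listed only older symbols (182 genes, floor 5.23 log2 units); renamed receptors were added, and that floor is an alternative. Robust SDs came from 20 bins of mean level. Calls used 1.5-fold; alternatives used limma 3.58.1 loessFit (span 0.3) and others. Named were all members past 1.5-fold, the extremes of each complex and central factors, and in other lists up to 3 genes a direction past 1.5-fold or the largest difference. Further list genes were named beside these after their values were seen. Members and lists were chosen with earlier results of these data known. The counting steps were tested on simulated data with larger changes and less spread than the members had here. That test does not show how well 1.5-fold calls hold at the spread of these arrays. Analysis used Python 3.11.15 and R 4.3.3. The number of arrays limits the precision.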

Additional observations from a re-analysis of the deposited data

How the results depend on the processing

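The count of 1 initiation factor gene past 1.5-fold upward became 0 with a floor 1 log2 unit higher, with a floor from negative-control probes (8.31 log2 units), among genes with a mean level of at least 10 log2 units (chosen after seeing the data) and with a 2-fold limit, because Eif2b4 is dim and its difference is below 2-fold. With the floor of 5.23 the count stayed 1 on the measured difference, but the Eif2b4 bound of at least 1.43-fold falls short of 1.5-fold. The count of 4 downward became 0 at 2-fold. After centring it was 3, since Eif4ebp1 stood at -0.58. The downward count was also 3 with the negative-control floor and at a mean level of at least 10 log2 units, where Eif2d dropped out. Without 4E-binding proteins and factors that act outside initiation it was 3 as well, as Eif4ebp1 was left out. The median of -0.04 became 0.02 after centring, 0.03 after loess correction for level, and -0.12 as a mean. It was 0.01 without 4E-binding proteins and factors that act outside initiation. Without Eif3e and Eif3h, whose probes name another chromosome, it was -0.08, a setting not planned beforehand. The sign of the median thus depends on the setting. In all, 31 of the 36 counts and medians under alternatives were within 1.5 times the reported count or 0.1 log2 units of the reported median. That total includes 3 settings that left every member and its measured difference unchanged. They were no floor, the floor from older receptor symbols, and the brightest probe per gene, as no member had more than 1 probe. Agreement under those settings carries no information on stability. Below 8.31 log2 units on both arrays lay Eif2b2, Eif2b4, Eif2d, Eif4e3 and Eif4g3. No paired analysis was possible because each group had 1 array.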

Other observations

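The genes next to the 5 members past 1.5-fold were also read, 2 named genes on each side in the RefSeq order of assembly GRCr8. Of these 20 neighbours 13 were above the floor, and 3 of them were past 1.5-fold, 1 higher and 2 lower. Among all named genes above the floor 21.8% were past 1.5-fold either way, and the neighbours were not tested. Near Eif3d, Txn2, which encodes the mitochondrial thioredoxin, read 9.36 log2 units in control and 8.37 in siTet2/3 cells. Next to Eif2d, the kinase gene Dyrk3 was at 4.64, under the floor, in control and at 6.07 in siTet2/3 cells, the opposite direction to Eif2d, while Mapkapk2, Rassf5 and Ikbke differed by -0.48, -0.51 and -0.43. Near Eif2b4, the zinc finger gene Zfp513 read 6.46 and 5.57, and Snx17 differed by 0.18. The neighbours of Eif4ebp1 were all below the floor.

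Many initiation factor genes have processed copies in the rat genome, and the table does not show how far a probe reads them. RefSeq lists 50 pseudogenes named after 22 of the 40 members, with 10 for Eif4e and 8 for Eif4a1. The median difference of these 22 genes was 0.02, with 3 past 1.5-fold, and that of the 18 without a pseudogene of their name was -0.09, with 2 past 1.5-fold. The share of signal from such copies was not tested.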
